A study of Homo sapiens with 4 samples.

Results

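The TALE homeobox cofactors of HOX proteins described here are the 9 genes PBX2, PBX3, PBX4, MEIS1, MEIS2, MEIS3, PKNOX1, PKNOX2 and TGIF1, found by symbol among 58735 genes of the count table. They were chosen by family membership, at a time when their counts in these libraries, above all those of PBX4, had already been seen, so their differences are described and not tested. RNA came from HEK293T, a transformed line of human embryonic kidney origin, and every group shared a CRISPR knockout of PBRM1. PBRM1, which encodes a PBAF chromatin remodeller subunit, was put back as a GFP fusion from a transfected plasmid over 48 h, either unaltered (WT) or carrying the change P1048R, T1202K or C1233W, which the series title places in the BAH (bromo-adjacent homology) region. Each construct had 1 library, so the 4 libraries give no replicate check, and a difference between them is a difference between libraries. The labels do not say whether the edited cells were 1 clone, and cells without a plasmid were not analysed here.

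TALE homeobox genes encode transcription factors whose homeodomain carries a 3 amino acid loop extension (TALE) between its first helices. PBX proteins bind DNA together with HOX proteins and with members of the MEIS and PKNOX (PREP) class, which raises the sequence selectivity of HOX proteins, carries PBX into the nucleus and protects it from turnover. TGIF1 belongs to a related branch that binds a similar site and acts mainly as a repressor, recruiting corepressors to retinoid and TGF-beta/SMAD target genes.

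The libraries held 10246250 to 11205322 counted reads. Levels are given in CPM, the read count relative to library size after TMM scaling (a trimmed mean of gene-wise ratios), with exact Poisson 95% intervals. PCR copies are not independent molecules, and all intervals here describe counting error alone. PBRM1 itself stood at 22768 CPM in WT, 8805 in P1048R, 15262 in T1202K and 60509 in C1233W. Of 11 genes typical of HEK293 cells (embryonic kidney, epithelial and neuronal), 10 reached 1 CPM in some library, PAX8 being the exception, and their summed level ran from 1104 CPM in P1048R to 1574 CPM in WT. The neurofilament genes NEFM and NEFL were highest in WT: NEFM was at 345, 172, 185 and 192 CPM in WT, P1048R, T1202K and C1233W, and NEFL at 140, 78.8, 103 and 105 CPM. NEFM passed the 2-fold rule described below in P1048R (log2 −1.01), though not with DESeq2 size factors (−0.96) or on total counts (−0.78). None of 4 mature kidney genes reached 1 CPM, and of the blood genes reported here CD3E and HBB had 0 reads in every library and PTPRC had at most 1 read. Of 5 fibroblast and endothelium genes 2 passed 1 CPM, COL1A1 and PDGFRA, and the list's summed level was 19.5 to 37.6 CPM. Of the 2 liver genes, APOA1 had at most 2 reads, and ALB had 2 in WT, 18 in P1048R, 4 in T1202K and 18 in C1233W. ALB passed the rule upward in P1048R (log2 2.53, 0.75 to 5.97) and C1233W (2.74, 0.96 to 6.18), the only libraries where it reached 1 CPM. Of all tested genes, 4.48% and 4.19% passed upward in these comparisons. The part of these markers in any result was not tested.

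The homeobox, the stretch of DNA that encodes the homeodomain, shows how the family divides into branches. A pattern search of the translated coding transcripts of GENCODE release 29 placed it, as 63 codons. It is shown for PBX2 and PBX3, the most abundant members, with capitals for 3 codons in the loop. The search required tyrosine and proline after the first of them, which encodes proline in the genes shown here except TGIF1, where it encodes alanine.
PBX2: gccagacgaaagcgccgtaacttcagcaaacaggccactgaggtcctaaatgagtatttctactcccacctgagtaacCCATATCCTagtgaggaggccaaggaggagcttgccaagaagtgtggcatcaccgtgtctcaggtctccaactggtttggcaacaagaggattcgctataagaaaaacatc
PBX3: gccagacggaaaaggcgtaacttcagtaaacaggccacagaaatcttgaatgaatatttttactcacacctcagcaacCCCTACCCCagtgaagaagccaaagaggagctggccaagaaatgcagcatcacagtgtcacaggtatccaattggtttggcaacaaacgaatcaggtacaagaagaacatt
For the other branches a shorter window around the same codons is enough to see the difference.
MEIS1: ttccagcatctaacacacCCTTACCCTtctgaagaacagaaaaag
PKNOX1: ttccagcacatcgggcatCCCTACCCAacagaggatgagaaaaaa
TGIF1: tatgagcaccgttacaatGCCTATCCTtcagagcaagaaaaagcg
Over 189 bases the PBX2 homeobox matched that of PBX3 at 79.9% of positions, but those of MEIS1 and TGIF1 at 49.7% and 46.0%. MEIS1 and MEIS2 matched at 83.6% and PKNOX1 and PKNOX2 at 78.3%. Identical stretches across genes bear on how reads are assigned. Of the 2638 windows of 50 bases in PBX4 transcripts, 0 recurred in a transcript of another gene. For PBX2 the share was 26.2%, found in its pseudogene PBX2P1 or the overlapping gene AL662884.1, so PBX2 counts are less certain. PBX2P1 itself held 3, 6, 4 and 5 reads in WT, P1048R, T1202K and C1233W, and AL662884.1 at most 1.

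All 9 genes reached 1 CPM in some library, as did 16262 genes in all, and PBX4 was the member that differed most between libraries. PBX4 (ENSG00000105717; GRCh38 chromosome 19, 19561707 to 19618916, minus strand) encodes the PBX protein known mainly from testis. It had 26 reads in WT, 137 in P1048R, 138 in T1202K and 91 in C1233W. In CPM, with the interval after each level, these were 2.78 (1.82–4.08) in WT, 11.5 (9.63–13.6) in P1048R, 12.2 (10.2–14.4) in T1202K and 8.80 (7.09–10.8) in C1233W. WT was thus the low library, and its interval did not reach that of any mutant. In bulk RNA, fewer cells with PBX4 transcripts and fewer transcripts per cell cannot be told apart.

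**Figure D1:**
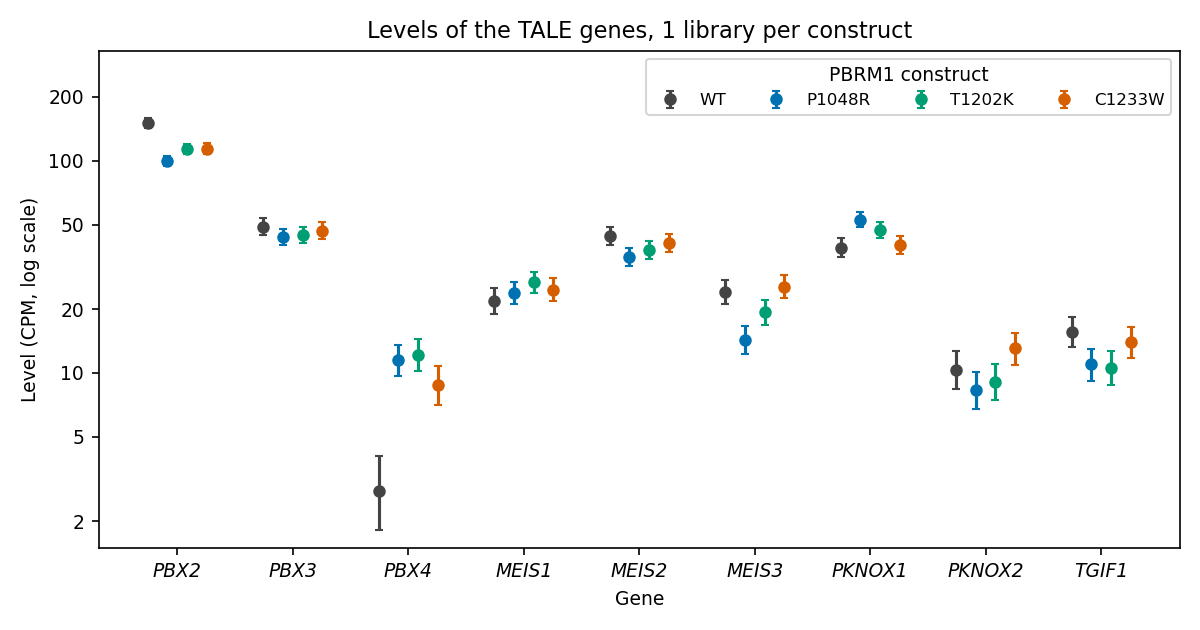
Levels of the 9 TALE genes in CPM (log axis) in the 4 libraries, 1 per PBRM1 construct; points are levels and bars are 95% Poisson counting intervals. PBX4 stands at 2.78 CPM in WT and between 8.80 and 12.2 CPM in the mutants, whereas the other genes differ less between libraries.

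Ratios between libraries were taken as log2 ratios of scaled counts after adding 0.5 to each count, with intervals from the Clopper-Pearson interval of the share of reads. A gene passed the size rule when its ratio was at least 2-fold and the 95% counting interval excluded 0 on the log2 scale. PBX4 was 4.06-fold higher in P1048R than in WT (log2 2.02, 1.43 to 2.71), 4.31-fold higher in T1202K (log2 2.11, 1.52 to 2.80) and 3.12-fold higher in C1233W (log2 1.64, 1.02 to 2.35). It was the single member of 9 to pass the rule in each of these comparisons. Among all tested genes, 4.48% passed upward in P1048R, 2.95% in T1202K and 4.19% in C1233W. Nothing is read from these member counts, since the PBX4 values had been seen when the genes were chosen. By size of ratio, 123 of 16262 genes had a higher ratio in P1048R, 73 in T1202K and 248 in C1233W. WT stood below all 3 mutants by the size rule in 1.25% of tested genes, PBX4 among them. The 3 ratios share the WT library, so they are not independent of each other.

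**Figure D2:**
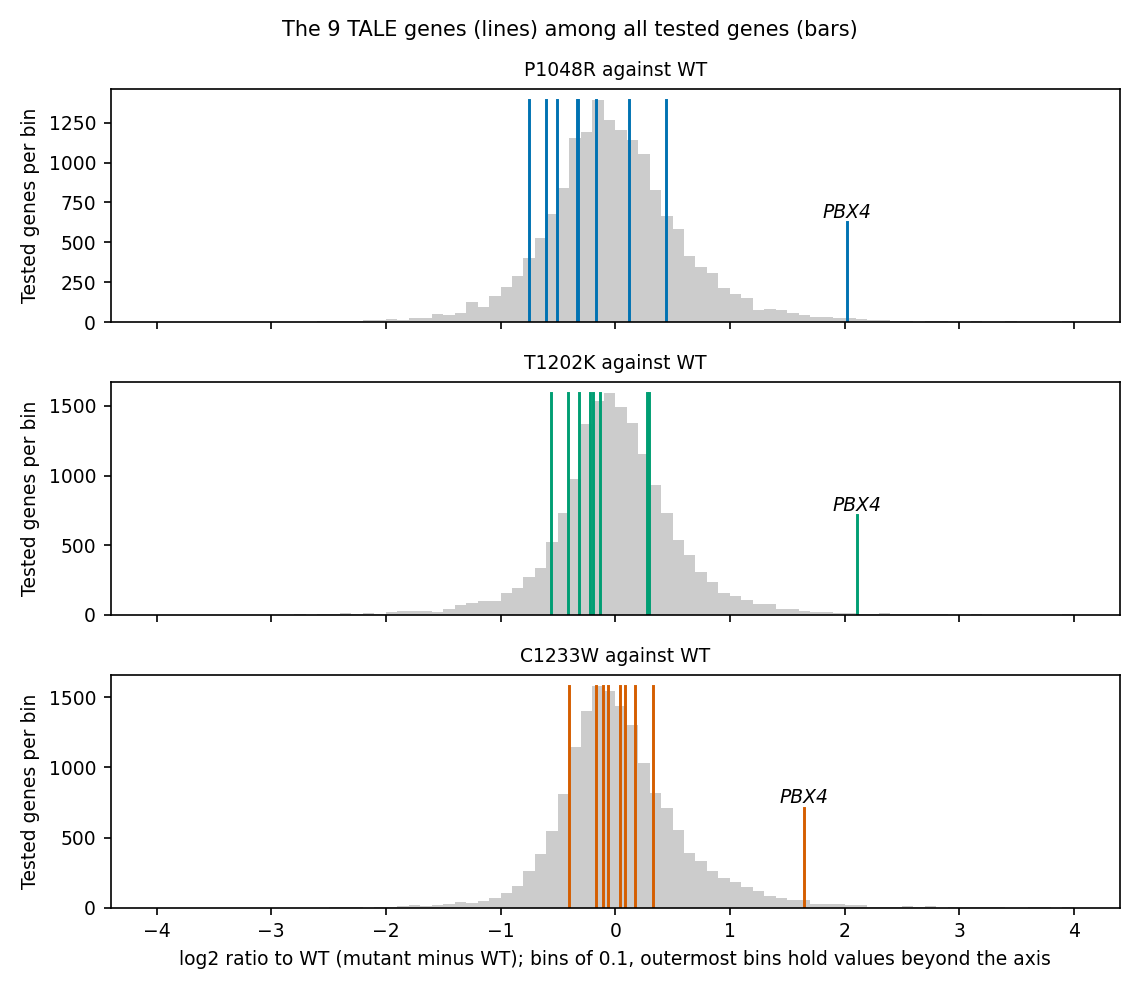
log2 ratio of each mutant library to WT (x axis) for all 16262 tested genes, as counts per bin of 0.1 (grey bars), with the 9 TALE genes as coloured lines whose height carries no value. PBX4 lies at 2.02, 2.11 and 1.64, in the upper tail, and the other 8 genes lie within the bulk, between −0.75 and 0.44.

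Between mutants PBX4 was closer. T1202K and P1048R differed by 0.09 on the log2 scale (−0.26 to 0.44), a difference within counting error. The ratio of C1233W to T1202K was −0.47 (−0.87 to −0.08), and that to P1048R was −0.38, where the interval reached 0 (−0.78 to 0.01) on TMM scaling. It excluded 0 with DESeq2 size factors (−0.80 to −0.01) and on total counts (−0.87 to −0.08), and the T1202K interval reached 0 once the GC and length trend was removed (−0.78 to 0.01). PBRM1, NEFM, NEFL and ALB levels differed between the libraries as well, and their part in the PBX4 differences was not tested.

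The start of PBX4 lies in a promoter rich in CpG, shown here because PBX4 is the member past the size rule. RefSeq (GRCh38.p14) places 250 bases before and 50 after the start on the minus strand at chr19:19618638-19618937. The GENCODE span of PBX4 ends inside this window, at 19618916, so its outermost start lies upstream of the RefSeq start. Capitals mark CpG dinucleotides.
PBX4 promoter: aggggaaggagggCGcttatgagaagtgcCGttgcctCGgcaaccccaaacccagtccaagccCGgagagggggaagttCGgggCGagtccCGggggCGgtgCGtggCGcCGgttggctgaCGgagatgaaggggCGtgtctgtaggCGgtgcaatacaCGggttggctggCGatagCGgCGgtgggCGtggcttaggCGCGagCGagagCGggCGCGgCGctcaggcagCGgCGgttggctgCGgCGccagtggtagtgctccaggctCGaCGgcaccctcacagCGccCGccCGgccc
It held 35 CpG and 71.0% G and C, against medians of 14 and 58.7% over 35116 promoters of that length. Of the other members, PKNOX1 had 46 CpG, PBX3 43, MEIS1 18 and PBX2 8 in this window. Among members with more than 1 window, MEIS2 had 35 and 16 CpG, MEIS3 14 and 13, and TGIF1 from 7 to 39. The PBX4 window held no match on either strand to TGATNNAT, a site for PBX with HOX, which 7.40% of all promoters hold, or to TGACAG, the core bound by MEIS, PKNOX and TGIF proteins, which 15.8% hold. RefSeq windows were matched for 8 members, 16 windows in all, several genes having more than 1 start. TGATNNAT occurred in windows of MEIS2 and TGIF1, and TGACAG in windows of PBX3 and TGIF1. These are matches of letters and say nothing of binding.

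Tested genes beside PBX4 on chromosome 19, looked up after its values had been seen, were not past the size rule upward. LPAR2, a lysophosphatidic acid receptor gene and the nearest upstream, had 2.78 CPM in WT and 1.84, 1.77 and 1.93 CPM in P1048R, T1202K and C1233W. The interval of its ratio to WT included 0 in every mutant. YJEFN3 was lower in P1048R (−1.31, −1.65 to −0.98) and T1202K (−1.73, −2.12 to −1.37), both past the size rule. In C1233W it was lower as well (−0.61, −0.91 to −0.31), short of 2-fold. ATP13A1 was above WT, the direction of PBX4, in P1048R (0.53, 0.36 to 0.70) and T1202K (0.64, 0.47 to 0.81), short of 2-fold. CILP2 (−0.95, −0.24 and −0.22 in P1048R, T1202K and C1233W), GMIP and NDUFA13 did not pass the rule in any mutant.

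The other PBX genes were more abundant than PBX4 and varied less. PBX2, a broadly expressed PBX gene in the major histocompatibility region (chromosome 6, 32184741 to 32190186, minus strand), stood at 151 CPM (143–159) in WT, 99.6 (94.0–105.4) in P1048R, 114 (107–120) in T1202K and 114 (108–121) in C1233W. WT was the high library, the reverse of PBX4. The log2 ratios of PBX2 to WT were −0.60 (−0.71 to −0.49), −0.41 (−0.52 to −0.30) and −0.41 (−0.52 to −0.29) for P1048R, T1202K and C1233W, none of them 2-fold. On total counts they were −0.38, −0.24 and −0.27, still with intervals below 0. Intervals lay on that side in all 3 mutants in 13.8% of tested genes, and on the side of PBX4, with WT lowest, in 10.4%. PBX3 (chromosome 9, 125747345 to 125967377, plus strand), a HOX partner studied in leukaemia with MEIS1 and HOXA9, held 49.0 CPM in WT, 43.7 in P1048R, 44.8 in T1202K and 46.9 in C1233W. Its intervals overlapped in all libraries, and the sign of its small ratios to WT turned on total-count scaling.

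Shares of reads within PBX2, PBX3 and PBX4 do not depend on how libraries are scaled. PBX4 made up 1.37% of their reads in WT (exact binomial 95% interval 0.898% to 2.003%), 7.41% (6.26%–8.70%) in P1048R, 7.15% (6.04%–8.39%) in T1202K and 5.19% (4.195%–6.33%) in C1233W. PBX2 made up 74.5% (72.4%–76.4%) in WT and 64.3%, 66.6% and 67.2% in P1048R, T1202K and C1233W, with upper bounds no higher than 69.4%. Per length of exon, PBX4 gave 2.33% of the signal of these 3 genes in WT and 12.1%, 11.7% and 8.60% in P1048R, T1202K and C1233W. The summed level of the 3 genes was 203 CPM in WT, 155 in P1048R, 171 in T1202K and 169.8 in C1233W, so the higher PBX4 levels were small beside the lower PBX2 levels. The log2 ratios of these sums to WT were −0.39, −0.25 and −0.26 on TMM scaling, and −0.17, −0.08 and −0.13 on total counts, where the T1202K interval included 0 (−0.17 to 0.02).

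**Figure D3:**
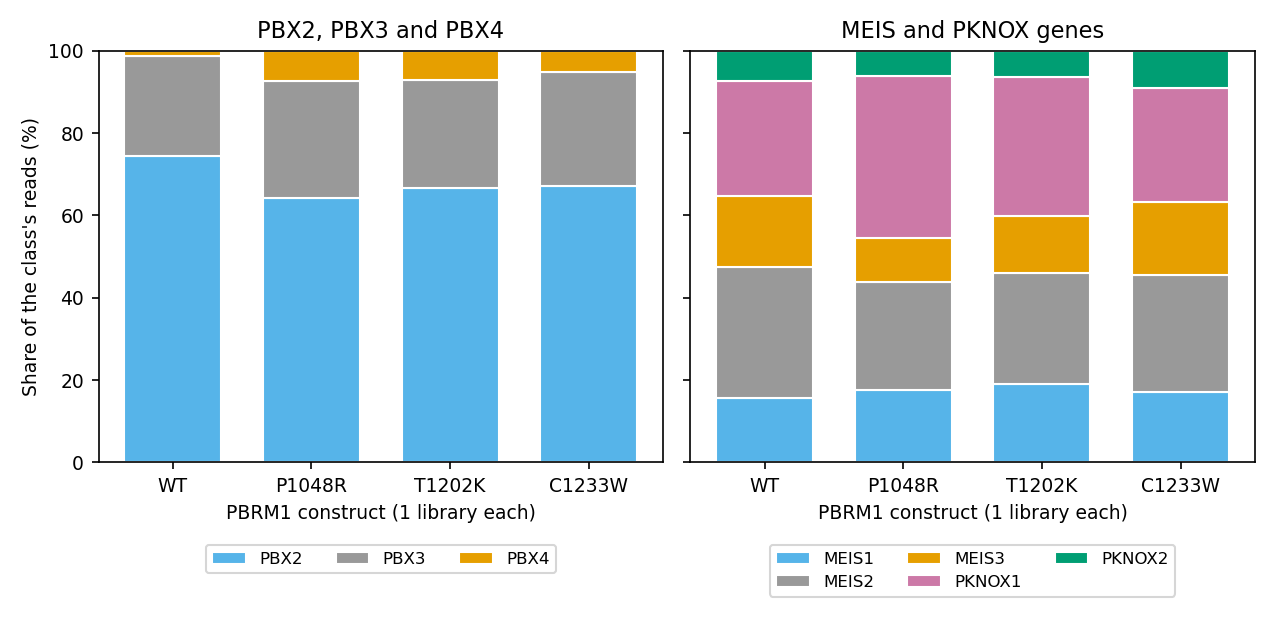
Share of reads (%) of each gene within PBX2, PBX3 and PBX4 (left) and within the 5 MEIS and PKNOX genes (right) in each library, as stacked bars that sum to 100. PBX4 holds 1.37% in WT and between 5.19% and 7.41% in the mutants, and PKNOX1 holds 39.3% of its class in P1048R against 27.9% in WT.

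Of the MEIS genes, which encode the DNA-binding partners of PBX and HOX, MEIS3 varied most. MEIS3 (chromosome 19, 47403124 to 47419523, minus strand) had 225 reads in WT, 171 in P1048R, 219 in T1202K and 264 in C1233W, or 24.1 CPM (21.03 to 27.4), 14.3 (12.3 to 16.6), 19.3 (16.9 to 22.1) and 25.5 (22.5 to 28.8). P1048R was the low library, with an interval below those of the other 3. The log2 ratio to WT was −0.75 (−1.04 to −0.46) in P1048R and −0.32 (−0.59 to −0.04) in T1202K, where total counts gave −0.14 (−0.42 to 0.13). C1233W was 1.78-fold above P1048R (log2 0.83, 0.55 to 1.12), the widest difference of a member other than PBX4, and did not differ from WT beyond counting error (0.08, −0.18 to 0.35), a ratio that turned to −0.06 after removal of the GC and length trend and to 0.28 (0.01 to 0.54) on total counts without PBRM1. Of 50-base windows in MEIS3 transcripts, 2.72% recurred in the pseudogenes MEIS3P1 or MEIS3P2, which had 0 reads.

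MEIS1 (chromosome 2, 66433452 to 66573869, plus strand), a cofactor of HOXA9 in leukaemia and a regulator of heart and limb, was at 21.8 CPM in WT, 23.8 in P1048R, 26.8 in T1202K and 24.7 in C1233W. All 4 intervals overlapped. Its ratio to WT was clearest in T1202K (log2 0.29, 0.03 to 0.56), and on total counts the intervals of all 3 mutants lay above 0. MEIS2 (chromosome 15, 36889204 to 37101299, minus strand), which acts in palate, heart and neural development, was at 44.2 CPM in WT, 35.2 in P1048R, 38.0 in T1202K and 41.1 in C1233W. WT was highest, with log2 ratios to it of −0.33 (−0.53 to −0.13) in P1048R and −0.22 (−0.42 to −0.02) in T1202K, and on total counts neither interval excluded 0. The T1202K interval also included 0 with DESeq2 size factors (−0.40 to 0.001) and with the GC and length trend removed (−0.38 to 0.02). An antisense transcript overlapped exons of MEIS1 and of MEIS2, MEIS1-AS2 and AC078909.1, each with 0 reads in every library. A further one, MEIS1-AS3, shared 19 bases with MEIS1 exons and held 5, 5, 5 and 8 reads in WT, P1048R, T1202K and C1233W.

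PKNOX1 (PREP1; chromosome 21, 42974510 to 43033931, plus strand), a ubiquitous partner that stabilises PBX, went the other way from MEIS3. It was at 38.9 CPM (35.0–43.2) in WT, 52.9 (48.8–57.1) in P1048R, 47.2 (43.3–51.4) in T1202K and 40.0 (36.3–44.1) in C1233W. P1048R and T1202K were the high libraries, by log2 0.44 (0.25 to 0.63) and 0.28 (0.08 to 0.47) over WT, and by 0.66 and 0.45 on total counts. In C1233W the interval excluded 0 on total counts without PBRM1 alone (0.23, 0.02 to 0.44). PKNOX2 (PREP2; chromosome 11, 125164687 to 125433389, plus strand), its relative of narrower expression, was at 10.4 CPM in WT, 8.29 in P1048R, 9.10 in T1202K and 13.1 in C1233W. No PKNOX2 ratio to WT excluded 0 on TMM scaling, whereas on total counts C1233W did (0.46, 0.08 to 0.85). C1233W was above P1048R by 0.65 (0.27 to 1.04) and above T1202K by 0.52 (0.14 to 0.91).

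Within the MEIS and PKNOX class, the shares of PKNOX1 and MEIS3 differed between libraries more than the sum of the class did. PKNOX1 made up 27.9% of the class's reads in WT (25.5% to 30.5%), 39.3% (36.9%–41.8%) in P1048R, 33.6% (31.3%–36.0%) in T1202K and 27.7% (25.5%–30.1%) in C1233W. MEIS3 made up 17.3% (15.3%–19.4%) in WT, 10.7% (9.19%–12.3%) in P1048R, 13.8% in T1202K and 17.7% in C1233W. The sum of the 5 genes was 139, 134, 140 and 144 CPM in WT, P1048R, T1202K and C1233W. All 3 intervals of its ratio to WT included 0 on TMM scaling, whereas on total counts the sum was above WT by 0.17 to 0.19.

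TGIF1 (chromosome 18, 3411608 to 3459978, plus strand), the repressor whose loss is a known cause of holoprosencephaly, was at 15.6 CPM (13.2–18.4) in WT, 10.97 (9.17–13.02) in P1048R, 10.6 (8.79–12.7) in T1202K and 13.9 (11.7–16.4) in C1233W. P1048R and T1202K were the low libraries, with log2 ratios to WT of −0.51 (−0.86 to −0.16) and −0.56 (−0.92 to −0.20). On total counts the P1048R interval included 0 (−0.28, −0.64 to 0.06). Its closest relative TGIF2, compared here from the list of other TALE genes, went the opposite way, at 45.8, 67.6, 58.6 and 47.3 CPM. TGIF1 therefore gave 25.4% of TGIF1 and TGIF2 reads in WT (21.9% to 29.2%), 14.0% (11.8%–16.4%) in P1048R, 15.3% (12.9%–18.02%) in T1202K and 22.7% (19.5%–26.2%) in C1233W.

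**Figure D4:**
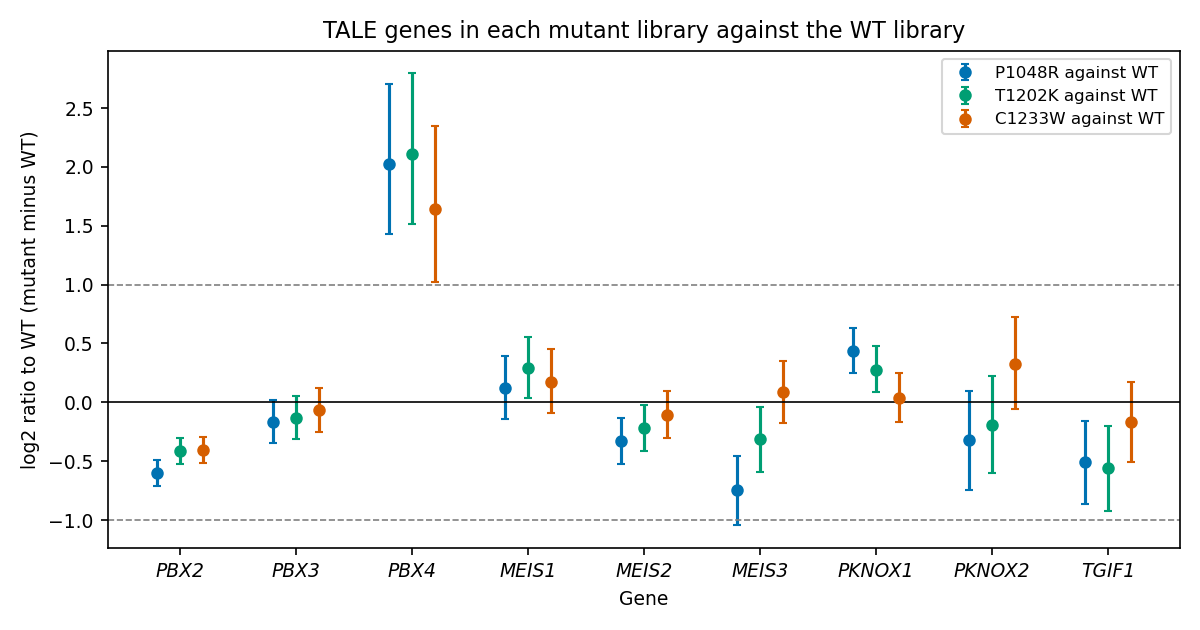
log2 ratio of each mutant library to the WT library for the 9 TALE genes; points are ratios, bars are 95% counting intervals, and dashed lines mark 2-fold. PBX4 is past 2-fold in all 3 mutants, PBX2 is below 0 in all 3, and MEIS3, PKNOX1 and TGIF1 are nearer to 0 in C1233W than in P1048R and T1202K.

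Counted over the 9 members, intervals lay above 0 for 2 and below 0 for 4 in P1048R against WT, where 23.9% and 27.1% of all tested genes did so. In T1202K the counts were 3 above and 4 below, against 22.2% and 22.3%, and in C1233W 1 above and 1 below, against 19.7% and 24.8%. The median member stood at −0.32, −0.19 and 0.04 in P1048R, T1202K and C1233W, and the median of all tested genes at −0.04, −0.01 and −0.01. On TMM scaling the interval included 0 for 3, 2 and 7 of 9 members in P1048R, T1202K and C1233W. On total counts it did so for 4, 4 and 5, and without PBRM1 reads for 4, 4 and 3, so the order of the mutants depends on the scaling.

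Between mutants 0 of 9 members passed the size rule, as did 1.24% of tested genes in T1202K against P1048R, 4.54% in C1233W against P1048R and 3.54% in C1233W against T1202K. For T1202K against P1048R, 2 intervals lay above 0 (PBX2 and MEIS3) and 0 below, against 16.9% and 12.0% of tested genes. For C1233W against P1048R, 4 lay above (PBX2, MEIS2, MEIS3 and PKNOX2) and PKNOX1 below, against 19.5% and 22.9%. For C1233W against T1202K, 3 lay above (MEIS3, PKNOX2 and TGIF1) and 2 below (PBX4 and PKNOX1), against 16.0% and 23.4%. On total counts PBX2 and MEIS2 left the first of these C1233W lists and TGIF1 the second, while the PKNOX1 ratio of T1202K to P1048R excluded 0 (−0.21, −0.38 to −0.04).

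Compared per kilobase of exon, which is needed between genes, PBX2 was the most abundant member in every library, at 34.8 CPM per kb in WT, followed by PBX3 at 10.8. PKNOX1 (5.11), MEIS3 (4.70) and MEIS2 (4.09) came next in WT, each overlapping its neighbour's interval. MEIS1 (1.996), TGIF1 (1.90), PKNOX2 (1.59) and PBX4 (1.09, 0.712 to 1.60) closed the order, again with neighbours that overlapped. In P1048R PBX4 came after PBX2, PBX3 and PKNOX1, at 4.49 CPM per kb (3.77 to 5.31), between PKNOX1 at 6.94 and MEIS2 at 3.26. In T1202K it was also between PKNOX1 (6.20) and MEIS3 (3.78), at 4.77 (4.01 to 5.64), and in C1233W it stood at 3.45, below MEIS2 at 3.81 with overlapping intervals. Exon length was the union over all GENCODE transcripts, which can understate the level of genes with many alternative exons.

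By the distance between mean-centred log2 CPM over the 4 libraries, the 5 genes most like PBX4 were NOXA1, SLC37A2, MCPH1-AS1, SFRP4 and TTC21A, at distances of 0.11, 0.13, 0.17, 0.22 and 0.23. They were picked for likeness to PBX4, so their low level in WT follows from the choice. NOXA1, an NADPH oxidase activator gene, was at 1.18, 5.19, 5.03 and 3.97 CPM in WT, P1048R, T1202K and C1233W. SFRP4, a secreted Wnt modulator gene, was at 0.856, 4.02, 3.62 and 2.52 CPM in the same order. SFRP4 and MCPH1-AS1 (0.321 CPM in WT) reached 1 CPM in mutant libraries only. MCPH1-AS1 is an antisense gene whose counts are uncertain without the strand setting. PKNOX1 was the member nearest to PBX4, at a distance of 1.46, rank 3386 of 16261 genes. With 4 libraries, such likeness rests on 4 points a gene.

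Of 9 other TALE genes examined, 6 reached 1 CPM, and 0 of 6 passed the size rule in a mutant against WT. Passing it in either direction was seen in 7.50%, 5.15% and 5.40% of all tested genes in P1048R, T1202K and C1233W. IRX5, an Iroquois gene of heart and retina development, came close, at 6.63, 13.2, 12.6 and 10.9 CPM in WT, P1048R, T1202K and C1233W. Its log2 ratios were 0.98 (0.55 to 1.44), 0.92 (0.49 to 1.38) and 0.72 (0.26 to 1.19), WT again being the low library. IRX5 passed the rule in P1048R with DESeq2 size factors (1.02) and, on total counts, in P1048R (1.20) and T1202K (1.10). The others ranged from IRX3, at 18.6 to 20.9 CPM, and MKX, at 12.6 to 18.5 CPM, down to IRX4 and IRX6, at 0.353 to 2.74 CPM. IRX4, with 4 reads in WT and 13 in C1233W, had a log2 ratio of 1.44 whose interval included 0, and passed on total counts without PBRM1 (1.63).

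HOX genes, the partners of these cofactors, had 36 of 39 members tested. Against WT the size rule was passed by 1 of these in P1048R, HOXD3 (6 reads against 18, log2 −1.86), and 0 in T1202K or C1233W, with medians of −0.25, −0.24 and −0.25. Over all tested genes 7.50%, 5.15% and 5.40% passed in either direction. Of the 36 HOX intervals, 18, 16 and 17 lay below 0 and 3, 2 and 6 above, in P1048R, T1202K and C1233W. Among all tested genes, 27.1%, 22.3% and 24.8% of intervals lay below 0 and 23.9%, 22.2% and 19.7% above. HOXA4 (−1.13) and HOXD9 (−1.10) passed in T1202K once the GC and length trend was removed. Of 18 partners and co-regulators of TALE proteins (PBXIP1, MYBBP1A, corepressors, SMAD and CRTC genes), 0 passed the size rule in any mutant. That count is to be read against the 7.50%, 5.15% and 5.40% of all tested genes. Their log2 ratios to WT ranged from −0.66 (MYBBP1A, a PREP1-binding nucleolar protein, in C1233W) to 0.66 (CRTC3, a CREB coactivator, in P1048R). PBXIP1, which binds PBX and keeps it from HOX, was at 16.9, 10.8, 12.3 and 20.5 CPM.

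Of 10 genes known as MEIS or PBX targets in other tissues, 9 were tested. MYB alone passed the size rule against WT, in P1048R and C1233W. The share of all tested genes that passed in either direction was 7.50% in P1048R, 5.15% in T1202K and 5.40% in C1233W. MYB, a haematopoietic transcription factor gene, was at 5.14 CPM in WT, 16.0 in P1048R, 10.1 in T1202K and 13.6 in C1233W. Its log2 ratios were 1.63 (1.18 to 2.13), 0.96 (0.47 to 1.49) and 1.399 (0.93 to 1.91), WT being the low library, and T1202K passed on total counts (1.14). HLF (0.78, 0.63 and 0.95) and the ephrin receptor gene EPHA8 (0.43, 0.55 and 0.98) did not reach 2-fold, although both passed in C1233W on total counts. The median of the 9 genes was 0.12, 0.12 and 0.21 in P1048R, T1202K and C1233W.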

How the data were processed

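RNA was sequenced from 4 libraries, 1 per PBRM1 construct, grouped by their titles. The authors deposited whole-number read counts for each gene, with no normalization, in 1 table. Trim Galore, HISAT2, featureCounts and hg38 are named, without versions, in the submitters' processing notes; no source used here gives the annotation, strand setting or treatment of multi-mapped reads. GENCODE release 29 held all 58735 gene identifiers, and gave coordinates, exon lengths and transcripts.

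TMM factors, from edgeR 4.0.16 (R 4.3.3), were 0.912 (WT), 1.07 (P1048R), 1.03 (T1202K) and 0.999 (C1233W). A floor of 3 reads was 0.251 to 0.321 CPM. Ratios were taken for the 16262 genes that reached 1 CPM in some library, in 6 pairs of libraries. With 1 library per construct no p-value was computed. The ratio and interval code was tested on simulated data.

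The members and lists were chosen with earlier results of these data known. All 9 members are named, with other TALE genes of at least 1 CPM, list genes past 2-fold against WT, pseudogene and antisense rows of members, and the 5 genes nearest in profile to the member of widest range; other genes were named after their values were seen. The lists were other TALE genes, HOX genes, TALE partners, MEIS or PBX targets, and markers of HEK293 cells, blood, liver, fibroblast and endothelium, and mature kidney. Some genes and sequences of these lists are not reported here. The 7 alternatives were DESeq2 1.42.0 size factors, total counts, total counts without PBRM1, no filter, a minimum of 5 CPM, 1 in place of 0.5 added, and removal of a cubic trend on transcript GC content and length.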

Additional observations from a re-analysis of the deposited data

How the results depend on the processing

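The counts of members past the size rule, 1 in each mutant against WT, 0 between mutants and 1 apart in WT, were the same under all 7 alternatives, and the gene was PBX4 each time. The filter settings (no filter and a minimum of 5 CPM) could not change a member's ratio or interval, because all 9 members were kept. Adding 1 could not change the intervals, so only the scaling and the GC and length settings could move them. Its log2 ratio to WT ranged over the settings from 1.96 to 2.25 in P1048R, 1.91 to 2.28 in T1202K and 1.54 to 1.83 in C1233W; in the last, the lower bound was 0.92 with the GC and length trend removed. PBX2 kept all 3 intervals below 0 under each scaling and with the GC and length trend removed. Its ratios ran from −0.63 to −0.38 in P1048R, −0.53 to −0.24 in T1202K and −0.46 to −0.21 in C1233W. Total counts moved the median of all genes to 0.19, 0.17 and 0.13 in P1048R, T1202K and C1233W, and with them the signs of some small ratios to WT turned (PBX3 in all mutants, MEIS2 in C1233W, and without PBRM1 reads TGIF1 in C1233W); relative to that shift the member medians were −0.29, −0.19 and 0.05, against −0.28, −0.18 and 0.05 on TMM scaling. With no filter, where the median of all genes itself was lower, they were −0.13, −0.00 and 0.15, and after removal of the GC and length trend −0.28, −0.13 and 0.01. Of 378 single ratios, which include those that the filter settings could not change, 14 moved outside their own counting interval. Only the ratios of PBX4 to WT had passed the size rule, and 0 of them changed sign. With 26 reads, WT limits the precision of every PBX4 ratio. No paired analysis was possible because each construct has 1 library.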
